A study of Homo sapiens with 14 samples.

Results

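The subunits of the mitochondrial oxidative phosphorylation complexes that are encoded in the nucleus were followed in SCC23 cells, KMT2D-WT or KMT2D-KO, across 14 RNA-seq libraries. The members were taken by gene name alone, from the NDUFA, NDUFB, NDUFC, NDUFS, NDUFV, SDH, UQCR, COX4 to COX8 and ATP5F, ATP5M and ATP5P families, and 104 names that end as pseudogene names do were left out. This gave 85 of the 59471 gene names in the count tables, with 37 in complex I, 4 in complex II, 9 in complex III, 17 in complex IV and 18 in complex V. The rule itself uses names and no measured value. NDUFA4, which carries a complex I name but sits in complex IV, stayed with its name.

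Oxidative phosphorylation makes most of the ATP of a resting cell. Complex I (NADH dehydrogenase) and complex II (succinate dehydrogenase) pass electrons to ubiquinone, complex III hands them to cytochrome c and complex IV passes them on to oxygen, and complex V, the ATP synthase, spends the proton gradient built by complexes I, III and IV. Complex II is wholly nuclear, while the other complexes join nuclear subunits with a few made from mitochondrial DNA. In tumour cells this route is weighed against glycolysis, which needs glucose, so that its genes are of interest when glucose is withdrawn.

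SCC23 is an established line of human head and neck squamous cell carcinoma (HNSCC), and KMT2D is a histone methyltransferase that is mutated in part of these tumours. All cells had received a Cas9-GFP plasmid, with an sgRNA to LacZ in the KMT2D-WT cells and to KMT2D in the lines KO1 and KO2, and GFP-positive cells were sorted after 24 h, with no cloning of single cells described. They grew in high glucose DMEM (+Glc) or were kept without glucose for 6 h (−Glc), in experiments labelled 1 and 2, which gave 3 KMT2D-WT and 4 KMT2D-KO libraries with glucose and the same numbers without. Experiment 1 held 1 KMT2D-WT, 1 KO1 and 1 KO2 library in each medium, and experiment 2 held 2 KMT2D-WT, 1 KO1 and 1 KO2. The labels name no separate cultures beyond the experiment, so the p-values measure the spread between these libraries, which may be partly technical.

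The libraries held 15669154 to 62968057 gene counts, and levels are given as CPM, counts scaled to a common library total, after TMM scaling over all 14 libraries. In experiment 2 with glucose the 4 libraries were paired-end and each mate added its own count, and the other 10 were single-end, so that within experiment 2 the medium and the read layout cannot be told apart. KMT2D itself was at 266 to 279 CPM in KMT2D-WT and 182 to 373 CPM in KMT2D-KO with glucose, and the groups overlapped (log2 fold change −0.02, SE 0.25, adjusted p = 0.967 by edgeR's quasi-likelihood test), so that its transcript level is no check of the genotype. Without glucose it was at 231 to 239 CPM in KMT2D-WT and 19.9 to 190 CPM in KMT2D-KO (log2 fold change −0.90, SE 0.60, adjusted p = 0.247). Over the 20 genes that lay 3 or more log2 units apart between KO1 and KO2 with glucose in both experiments, the library labelled KO1 in experiment 2 without glucose lay 3.94 log2 units from KO1 and 0.40 from KO2, so that it went against its label. The squamous markers KRT5, KRT14, KRT17, KRT6A, TP63, CDH1, EPCAM, DSG3, PERP and SFN summed to 1085 to 2138 CPM with glucose and to 1683 to 3638 CPM without, whereas the fibroblast, immune and endothelial lists summed to at most 26.7, 1.10 and 4.11 CPM in any library.

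The nuclear oxidative phosphorylation genes stood higher in KMT2D-KO cells than in KMT2D-WT cells of the same experiment and medium, for the 85 genes together and for every complex. With glucose their summed level was 8082 CPM in KMT2D-WT against 9268 (KO1) and 10747 (KO2) CPM in experiment 1, and 4839 and 4533 CPM against 5350 (KO1) and 6431 (KO2) CPM in experiment 2. Without glucose it was 8813 CPM against 13839 (KO1) and 12488 (KO2) CPM in experiment 1, and 5918 and 5971 CPM against 8899 (labelled KO1) and 9437 (KO2) CPM in experiment 2. Within each experiment both KMT2D-KO libraries lay above every KMT2D-WT library, and across experiments the groups overlapped because experiment 1 ran higher in both genotypes. The mean KMT2D-KO to KMT2D-WT ratio was 1.24 and 1.26 in experiments 1 and 2 with glucose, and 1.49 and 1.54 without.

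The same order held for each complex sum in each experiment and medium. With glucose the ratios ran from 1.16 for complexes II and III in experiment 1 to 1.34 for complex V in experiment 2, and without glucose from 1.32 for complex II in experiment 1 to 1.62 for complex IV in experiment 1 and for complex V in experiment 2. Complex I gave 34.1 to 38.4% of the summed CPM in the 14 libraries, complex II 1.94 to 3.96%, complex III 10.465 to 12.7%, complex IV 14.8 to 20.7% and complex V 28.9 to 36.0%. For 4 complexes the range did not overlap between the experiments: complex I had 37.2 to 38.4% in experiment 1 and 34.1 to 37.0% in experiment 2, complex II 1.94 to 2.28% and 2.72 to 3.96%, complex III 10.465 to 11.3% and 11.316 to 12.7%, and complex IV 18.1 to 20.7% and 14.8 to 16.9%. These are descriptions of summed levels, with no test.

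**Figure D1:**
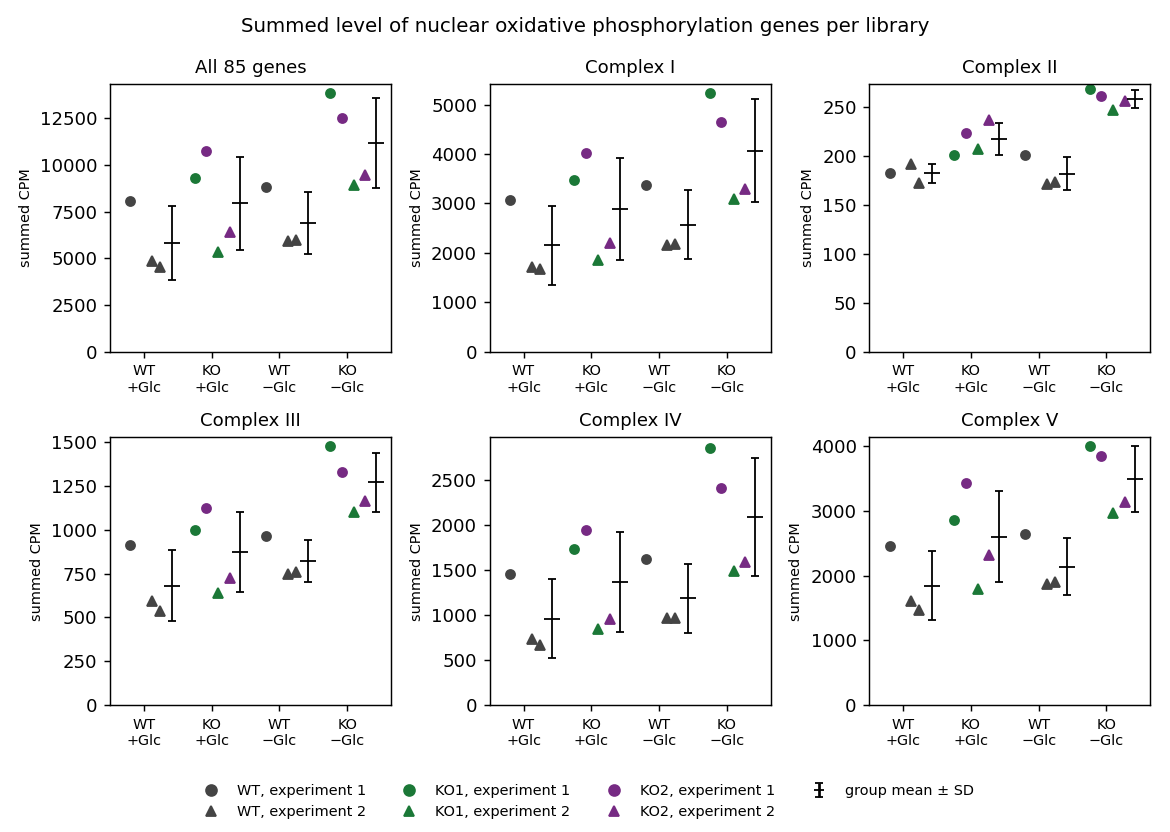
Summed CPM (TMM-scaled, y axes from 0) of the 85 genes and of each complex in the 14 libraries, by genotype and medium; circles are experiment 1, triangles experiment 2, colours the lines, and black bars the group mean ± SD (n = 3 or 4). For all 85 genes the KMT2D-KO libraries without glucose sat between 8899 and 13839 CPM, and within each experiment they lay above KMT2D-WT.

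The first comparison asked how KMT2D-KO cells differ from KMT2D-WT cells while glucose is present. Of the 80 members with enough counts to be tested, 30 were higher in KMT2D-KO and 1, ATP5MC1, was lower at an adjusted p under 0.05, beside 13% and 11.7% of all 20423 genes tested. The median log2 fold change was 0.30 over the members and 0.02 over all genes, and 67 of the 80 were above 0. The calls spread over all complexes, with 12 of 37 members higher in complex I, 2 of 4 in complex II, 3 of 9 in complex III, 6 of 12 in complex IV and 7 of 18 in complex V, and the medians of the complexes lay between 0.25 and 0.32. With each library set against its own experiment, 40 of 79 members (50.6%) had both KMT2D-KO libraries above every KMT2D-WT library in both experiments, beside 22.6% of all genes, and 5 (ATP5MC1, NDUFA2, NDUFA8, NDUFS1 and SDHA) had them below, beside 22.3%.

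The call count with glucose rested on the KMT2D-WT libraries: with the only experiment 1 library of KMT2D-WT left out 7 members were higher, beside 5.31% of all genes, and with replicate 3 of KMT2D-WT left out 18, beside 8.47%, while the median stayed at 0.23 or above when any 1 library was left out. The lines differed in extent. Against the same KMT2D-WT libraries, KO1 alone had 28 members higher and 9 lower (median 0.18), beside 15.3% and 15.3% of all genes, and KO2 alone had 55 higher and 1 lower (median 0.42), beside 18% and 17%. The summed level of KO1 was 1.15 and 1.14 times that of KMT2D-WT in experiments 1 and 2, and that of KO2 was 1.33 and 1.37 times. That order did not hold throughout without glucose, where the ratios were 1.57 and 1.497 for the libraries labelled KO1 and 1.42 and 1.59 for KO2. There the libraries labelled KO1 alone had 54 members higher (median 0.53) beside 20.3% of all genes, and KO2 alone 64 (median 0.50) beside 33.7%. The one labelled KO1 in experiment 2 went against its label, so that KO1 without glucose rests on the library of experiment 1. The difference between the lines was not tested.

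After 6 h without glucose the same comparison gave 57 members higher and 1, again ATP5MC1, lower of 78 tested, beside 25.9% and 24.9% of all 16782 genes tested. The median log2 fold change was 0.51 over the members and 0.003 over all genes, and 73 of the 78 were above 0. Complex I had 24 of 36 members higher (median 0.47), complex II 3 of 4 (0.42), complex III 7 of 9 (0.60), complex IV 9 of 11 (0.56) and complex V 14 of 18 (0.50). In 64 of 79 members (81.0%) both KMT2D-KO libraries lay above every KMT2D-WT library in both experiments, beside 29.5% of all genes, and in 2 (ATP5MC1 and UQCR10) they lay below, beside 31.8%. Of the members higher in KMT2D-KO, 27 passed the threshold in both media, 3 with glucose alone and 30 without glucose alone, which does not by itself show a difference between the media. Scaling by library size alone gave 39 higher and 5 lower, beside 16.2% and 37.5% of all genes, and a member median of 0.26 (0.24 with glucose). Of the calls over all genes 30.2% were then higher ones, in place of 51.0%, and the median of all genes was −0.25. With the library that went against its KO1 label left out, 51 members were higher and 1 lower, beside 20% and 18.5% of all genes. Left-out libraries gave 45 to 64 members higher, beside 17.7 to 36.7% of all genes. In experiment 2 without glucose the 2 libraries of each genotype lay close, at median differences of 0.072 (KMT2D-WT) and 0.084 (KMT2D-KO) log2 units. The other pairs of 1 genotype, medium and experiment lay 0.13 to 0.36 apart. Summing the close pairs, which lowers the number of libraries, gave 25, beside 8.99% of all genes. If these are not separate cultures, the p-values without glucose count them as more independent than they are.

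Squamous markers moved in the same libraries: with glucose 1 of 9 tested (KRT14) was lower in KMT2D-KO, and without glucose 7 of 10 were higher, with their summed level 1.44 and 1.70 times that of KMT2D-WT in experiments 1 and 2. Fibroblast markers were higher in KMT2D-KO at low levels, summing to 2.01 to 3.80 times KMT2D-WT, with COL1A1 called in both media, 1 endothelial marker (CDH5) was called higher without glucose, and 0 of 1 immune markers tested passed. The part of these markers in the results was not tested.

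**Figure D2:**
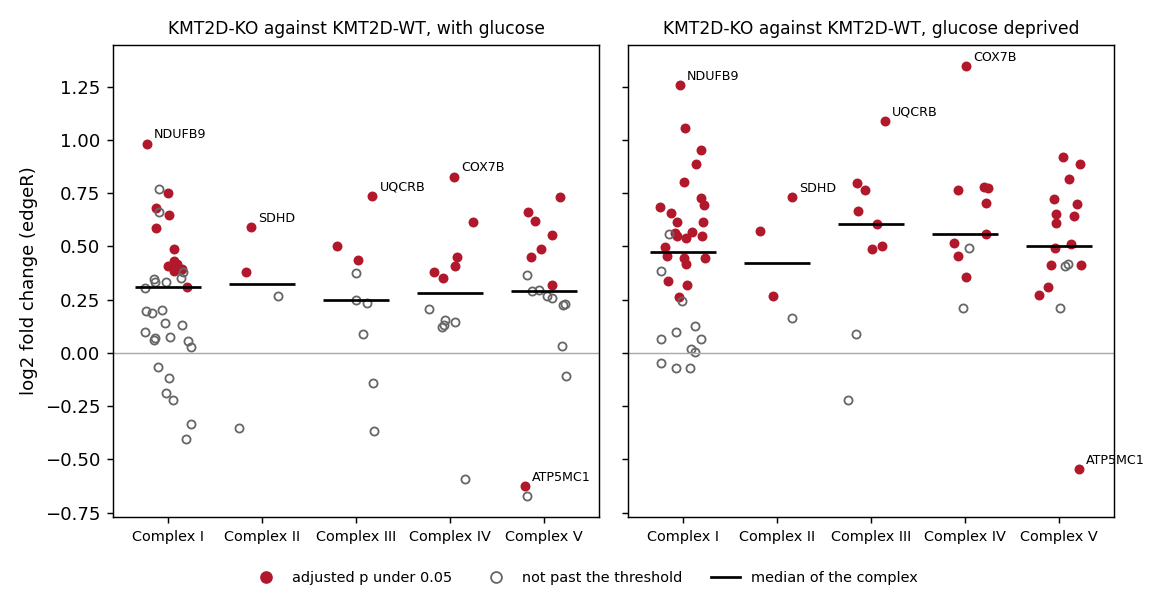
Log2 fold change of KMT2D-KO against KMT2D-WT for each tested member (points), by complex, with glucose (left, 80 genes) and glucose deprived (right, 78 genes); filled points passed an adjusted p under 0.05 and black lines are the medians of the complexes. Most points lie above 0 in both panels, the medians rise from 0.25 to 0.32 on the left to 0.42 to 0.60 on the right, and ATP5MC1 is the filled point below 0 in both.

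Complex I takes electrons from NADH through 7 nuclear core subunits that hold its flavin, iron-sulfur clusters and ubiquinone site. With glucose 2 of these, NDUFS3 (log2 fold change 0.39) and NDUFV1, rose in KMT2D-KO, and without glucose 6 did. NDUFV1, which binds NADH and flavin, was at 308, 170 and 163 CPM in KMT2D-WT and at 336, 409, 218 and 254 CPM in KMT2D-KO with glucose (log2 fold change 0.42, SE 0.10, adjusted p = 0.0172). The levels without glucose were 358, 204 and 212 CPM in KMT2D-WT and at 519, 535, 365 and 369 CPM in KMT2D-KO (0.70, SE 0.06, adjusted p = 2.31e-04). Within each experiment the KMT2D-KO libraries were the higher ones in both media. NDUFS1, the largest core subunit, was by contrast at 156 to 157 CPM in KMT2D-WT and 127 to 148 CPM in KMT2D-KO with glucose, and no call was made in either medium (log2 fold change −0.19 and −0.07). The values of NDUFV2 are uncertain, because 81.9% of the counts on it and its named pseudogene NDUFV2P1 fell on the pseudogene. NDUFS7 shares 51.4% of its exonic bases with other genes.

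The largest rise in complex I was that of NDUFB9, an accessory subunit of the membrane arm (chr8:124539101-124580648, GRCh38, plus strand). With glucose it was at 143, 64.0 and 54.4 CPM in KMT2D-WT and at 270, 288, 109 and 125 CPM in KMT2D-KO, a log2 fold change of 0.98 (SE 0.09, adjusted p = 1.74e-04). Deprived of glucose, its levels were 160, 100 and 104 CPM in KMT2D-WT and at 409, 370, 237 and 256 CPM in KMT2D-KO, a log2 fold change of 1.26 (SE 0.08, adjusted p = 7.9e-05). Its groups overlapped across experiments with glucose, and without glucose every KMT2D-KO library lay above every KMT2D-WT library. Of its exonic bases 13.2% are shared with MTSS1 or TATDN1, and the reads were counted without strand. NDUFB10, another membrane arm subunit named after its values were seen, gave 0.75 with glucose and 1.06 without (SE 0.13 and 0.08).

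Complex II oxidises succinate and joins the electron transport chain to the citric acid cycle. Its membrane anchor subunits SDHC and SDHD rose in both media, the iron-sulfur subunit SDHB passed the test without glucose, and the flavoprotein subunit SDHA passed it in neither. SDHD was at 8.14, 32.0 and 33.4 CPM in KMT2D-WT and 13.6, 11.2, 44.6 and 53.0 CPM in KMT2D-KO with glucose (log2 fold change 0.59, SE 0.11, adjusted p = 0.00438). After deprivation SDHD was at 7.80, 26.5 and 28.8 CPM in KMT2D-WT and 13.5, 10.99, 46.0 and 50.8 CPM in KMT2D-KO (0.73, SE 0.11, adjusted p = 0.00192). The first value of KMT2D-WT and the first 2 of KMT2D-KO come from experiment 1, where SDHD ran lower than in experiment 2 in both genotypes. SDHA gave −0.35 with glucose (adjusted p = 0.105) and 0.16 without (0.18), and 57.1% of the counts on it and its pseudogenes SDHAP1, SDHAP2 and SDHAP3 fell on the pseudogenes. For SDHD this share was 7.42%.

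Complex III moves electrons from ubiquinol to cytochrome c. Its Rieske iron-sulfur protein UQCRFS1 rose in both media (log2 fold change 0.50 and 0.67), and the core proteins UQCRC1 and UQCRC2 passed the test without glucose (0.49 and 0.50) but not with it (0.09 and 0.24). UQCRB, which binds ubiquinone, rose most (chr8:96222947-96235546, GRCh38, minus strand). It was at 93.6, 69.8 and 79.2 CPM in KMT2D-WT and 169, 193, 105 and 119 CPM in KMT2D-KO with glucose, so that the groups did not overlap (log2 fold change 0.74, SE 0.12, adjusted p = 0.00215). Deprived cells had 103, 106 and 108 CPM in KMT2D-WT and 231, 215, 219 and 242 CPM in KMT2D-KO, again with no overlap (1.09, SE 0.08, adjusted p = 1.06e-04). CYC1, the cytochrome c1 subunit of the same complex, is outside the name rule and moved alike, at 0.84 (SE 0.12) with glucose and 1.29 (SE 0.06) without.

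Complex IV reduces oxygen to water, and several of its subunits exist as a ubiquitous and a tissue-restricted isoform. In SCC23 cells the ubiquitous isoforms carried the counts. COX6A2 had 0 counts over all 14 libraries, COX4I2 had 2, COX7B2 3, COX6B2 8, COX8C 25 and COX7A1 78, and of these COX7A1 alone passed the filter, with glucose, where it made no call. Of the 7 ubiquitous forms (COX4I1, COX6A1, COX6B1, COX7A2, COX7A2L, COX7B and COX8A), 4 rose in KMT2D-KO with glucose and 6, all but COX7A2, without. Of the counts on COX6A1 and its pseudogenes, 10.7% fell on the pseudogenes. COX7B (chrX:77899440-77907376, GRCh38, plus strand) rose most. It was at 87.3, 41.8 and 40.5 CPM in KMT2D-WT and 153, 198, 53.2 and 80.5 CPM in KMT2D-KO with glucose (log2 fold change 0.83, SE 0.16, adjusted p = 0.00618). The deprived libraries gave 89.2, 57.2 and 49.2 CPM in KMT2D-WT and 219, 214, 136 and 149 CPM in KMT2D-KO, the largest change of any member in either medium (1.35, SE 0.08, adjusted p = 6.54e-05). Without glucose every KMT2D-KO library lay above every KMT2D-WT library, and with glucose the groups overlapped across experiments. COX4I1, the ubiquitous form of a subunit that regulates the complex, gave 0.35 and 0.76 in these comparisons, and NDUFA4 gave 0.38 (adjusted p = 0.0708) and 0.55 (adjusted p = 0.00198).

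Complex V turns the proton gradient into ATP through a catalytic head, F1, and a membrane rotor, Fo. Of the 5 genes of F1, ATP5F1A, ATP5F1B and ATP5F1C rose in KMT2D-KO with glucose and all 5, with ATP5F1D and ATP5F1E, without. ATP5F1B, the catalytic beta subunit and the complex V gene with the highest level per exon length (340 CPM per kb), was at 616, 430 and 384 CPM in KMT2D-WT and 700, 1050, 500 and 872 CPM in KMT2D-KO with glucose (log2 fold change 0.66, SE 0.20, adjusted p = 0.0411). After deprivation it stood at 663, 515 and 524 CPM in KMT2D-WT and 989, 1249, 1073 and 1105 CPM in KMT2D-KO, with no overlap (0.92, SE 0.09, adjusted p = 2.49e-04). With glucose KO2 carried the higher value in both experiments. ATP5MPL, a small subunit of the membrane part, gave the largest rise of complex V with glucose, at 115, 70.3 and 65.1 CPM in KMT2D-WT and 197, 212, 101.6 and 112 CPM in KMT2D-KO (0.73, SE 0.09, adjusted p = 5.83e-04), and gave 0.82 without glucose.

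**Figure D3:**
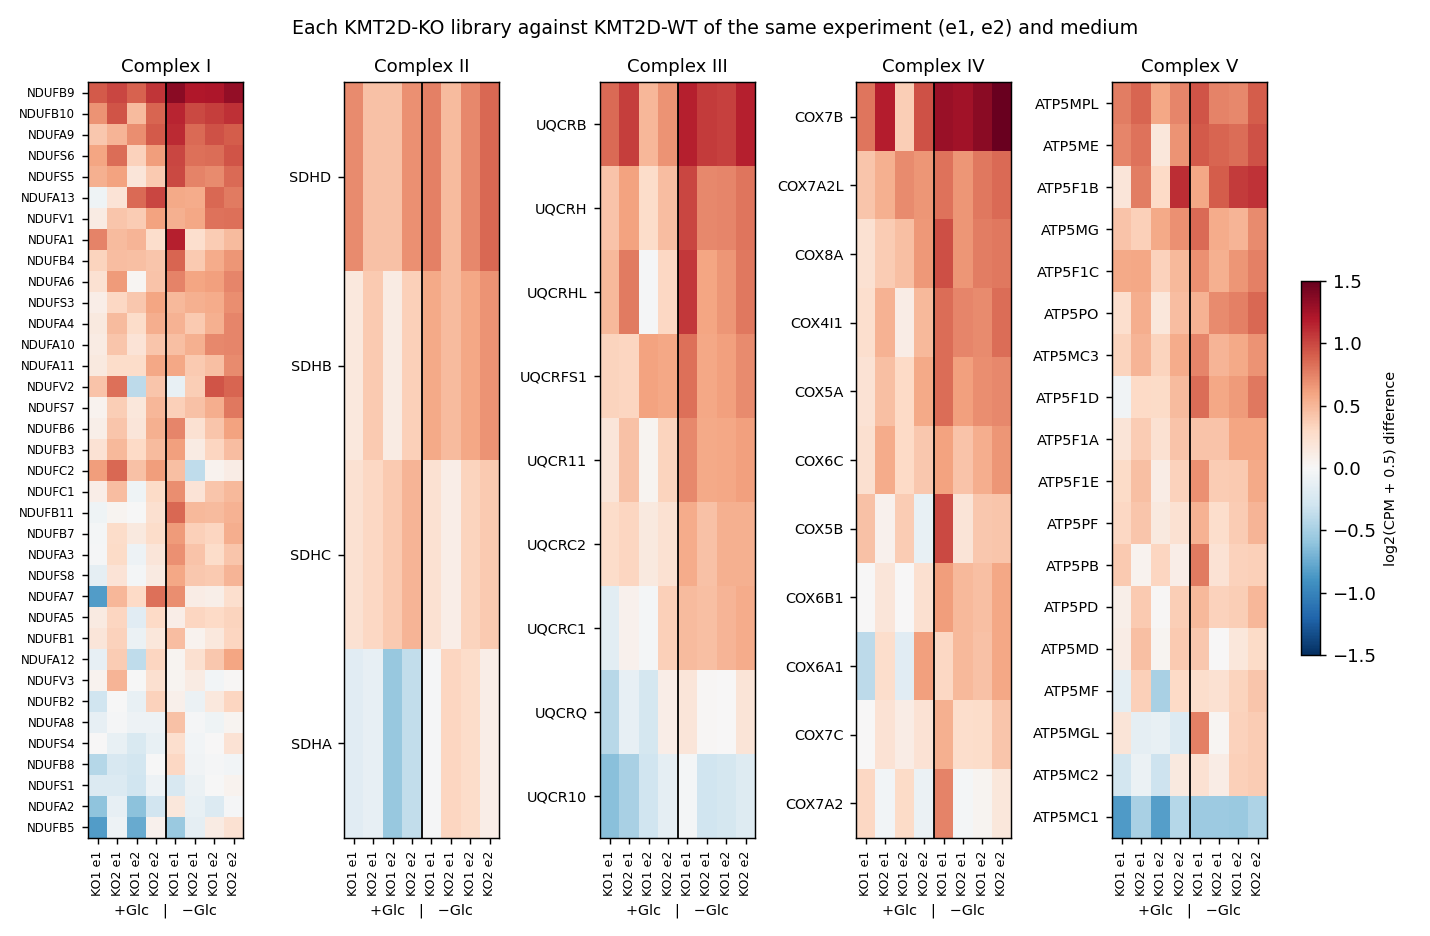
Difference in log2(CPM + 0.5) between each KMT2D-KO library (columns; e1 and e2 are experiments 1 and 2) and the mean of KMT2D-WT of the same experiment and medium, for 78 of the members tested over 14 libraries (rows, ordered within each complex by their mean); red is higher and blue lower in KMT2D-KO. The left 4 columns of each panel are with glucose and the right 4 without, and ATP5MC1 at the foot of complex V is blue in all 8 columns.

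The c subunit, which forms the rotor ring of complex V, is encoded by ATP5MC1, ATP5MC2 and ATP5MC3, whose proteins differ in the targeting sequence that is cut off and are the same once mature. These genes moved in different directions. ATP5MC1 (chr17:48892765-48895871, GRCh38, plus strand) was at 111, 58.3 and 57.5 CPM in KMT2D-WT and 61.5, 79.6, 32.5 and 43.1 CPM in KMT2D-KO with glucose (log2 fold change −0.63, SE 0.12, adjusted p = 0.00667). Without glucose it was at 119, 54.8 and 53.7 CPM in KMT2D-WT and 81.7, 81.3, 36.9 and 39.2 CPM in KMT2D-KO (−0.54, SE 0.07, adjusted p = 6.93e-04). Within each experiment every KMT2D-KO library was below every KMT2D-WT library in both media. ATP5MC3 rose, from 261, 128 and 114 CPM to 331, 374, 152 and 179 CPM with glucose (0.45, SE 0.09, adjusted p = 0.00805), and gave 0.61 without glucose (SE 0.09, adjusted p = 0.00157). ATP5MC2 gave −0.11 with glucose (adjusted p = 0.578) and rose by 0.27 without (SE 0.08, adjusted p = 0.0264).

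As a share of the CPM of the 3 genes, ATP5MC1 made up 25.3, 26.7 and 28.5% in KMT2D-WT and 13.7, 15.4, 15.5 and 16.8% in KMT2D-KO with glucose. Without glucose it made up 25.5, 22.3 and 21.7% in KMT2D-WT and 13.1, 14.7, 11.7 and 11.6% in KMT2D-KO. The groups did not overlap in either medium, across experiments as well as within them, and this share was formed after the values of the single genes were seen. The summed CPM of the 3 genes was 1.10 and 1.11 times that of KMT2D-WT in experiments 1 and 2 with glucose, with overlap in experiment 2, and 1.26 and 1.32 times without, with none. ATP5MC1 stayed below 0 under every alternative run, between −0.29 and −0.84, though its call was lost in both media without experiment in the model. Calls within experiment 1 alone are not given, since KMT2D-WT had 1 library a medium there. With glucose the call of ATP5MC1 was also lost within experiment 2 alone and with the KMT2D-WT library of experiment 1 left out. Without glucose it was lost with the close pairs summed or a fold of 1.5 required. Of the counts on ATP5MC1 and its pseudogenes, 3.20% fell on the pseudogenes, and for ATP5MC2 this was 6.26%.

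**Figure D4:**
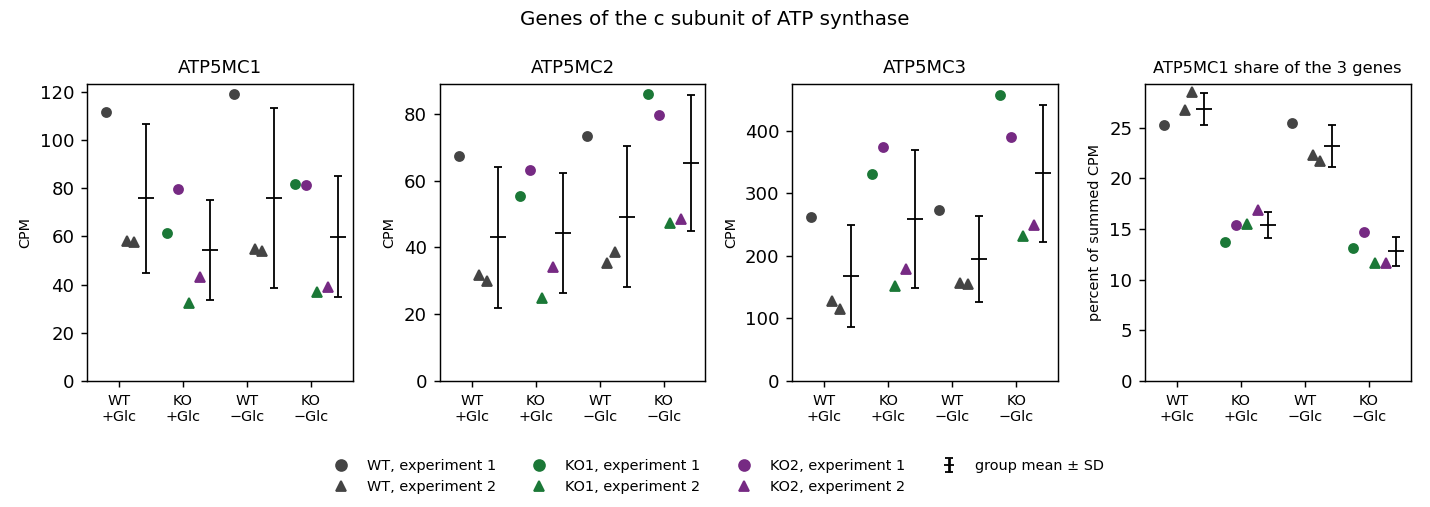
CPM of ATP5MC1, ATP5MC2 and ATP5MC3 in each library and, at the right, the share of ATP5MC1 in the summed CPM of the 3 genes (percent); circles are experiment 1, triangles experiment 2, and black bars the group mean ± SD (n = 3 or 4). The ATP5MC1 share lies between 21.7 and 28.5% in KMT2D-WT and between 11.6 and 16.8% in KMT2D-KO.

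Many promoters of these genes are known for sites of the factors NRF1 and GABP, a factor of the ETS family. RefSeq promoter sequence (GRCh38.p14) was at hand for 69 of the 85 members. The 16 without an entry include NDUFB9, SDHC, UQCRB, UQCRHL, ATP5F1B, ATP5F1D and ATP5MC3. In the 250 bases before the start, on either strand, the NRF1 core GCGCANGCG was found in 20 of the 69 (29.0%), beside 6.56% of all 35116 promoters and 8.49% of those of protein-coding genes. The ETS core CCGGAAG was found in 17 (24.6%), beside 8.52% and 10.7%. The YY1 core ATGGCGGC was in 2 members (2.90%, beside 1.30% of all promoters), the CCAAT box in 23 (33.3%, beside 32.0%), TATAAA in 7 (10.1%, beside 10.7%), and the ESRRA core TCAAGGTCA in 0, beside 0.319%. The median log2 fold change without glucose was 0.60 over the 19 tested members with the NRF1 core and 0.49 over the 45 without it, and 0.52 over 17 and 0.50 over 47 for the ETS core.

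Printed here are the 250 bases before the start of ATP5MC1, the member that fell, of ATP5MPL, the complex V member that rose most with glucose, of UQCRC1, a core protein of complex III, of COX6B1, the member with a called difference between media, and of SDHB of complex II. Capitals mark matches to the NRF1 or ETS core. Each window ends at the RefSeq start, and that of ATP5MC1 so runs 22 bases into the Ensembl gene model given above. Those of ATP5MPL and UQCRC1 lie wholly inside their Ensembl gene models (chr14:103912288-103928269 and chr3:48599002-48610976), and those of COX6B1 and SDHB lie outside theirs. The ATP5MC1 window holds neither core, that of ATP5MPL holds 1 NRF1 core, that of UQCRC1 holds 2, and those of COX6B1 and SDHB hold 1 ETS core each. A match is a string of letters and not a bound site.
ATP5MC1, chr17:48892537-48892786, plus strand: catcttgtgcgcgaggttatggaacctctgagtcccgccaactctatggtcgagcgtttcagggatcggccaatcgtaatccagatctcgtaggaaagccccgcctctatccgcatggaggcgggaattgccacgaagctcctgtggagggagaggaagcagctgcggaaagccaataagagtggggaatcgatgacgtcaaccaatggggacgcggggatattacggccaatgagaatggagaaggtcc
ATP5MPL, chr14:103921530-103921779, minus strand: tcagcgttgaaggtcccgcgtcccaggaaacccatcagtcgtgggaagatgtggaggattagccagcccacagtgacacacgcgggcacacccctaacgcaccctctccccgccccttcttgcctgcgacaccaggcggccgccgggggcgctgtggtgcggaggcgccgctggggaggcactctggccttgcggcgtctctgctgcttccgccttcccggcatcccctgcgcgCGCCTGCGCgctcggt
UQCRC1, chr3:48609647-48609896, minus strand: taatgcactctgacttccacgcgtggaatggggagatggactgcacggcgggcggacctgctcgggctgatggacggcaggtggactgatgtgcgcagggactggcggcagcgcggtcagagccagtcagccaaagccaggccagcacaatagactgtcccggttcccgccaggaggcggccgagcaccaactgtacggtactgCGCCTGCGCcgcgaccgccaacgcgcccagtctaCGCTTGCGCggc
COX6B1, chr19:35648073-35648322, plus strand: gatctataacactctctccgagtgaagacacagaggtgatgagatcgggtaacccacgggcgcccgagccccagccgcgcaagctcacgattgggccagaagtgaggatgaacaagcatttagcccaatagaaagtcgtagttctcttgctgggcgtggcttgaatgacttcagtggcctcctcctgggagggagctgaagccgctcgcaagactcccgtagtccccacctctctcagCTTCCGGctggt
SDHB, chr1:17054033-17054282, minus strand: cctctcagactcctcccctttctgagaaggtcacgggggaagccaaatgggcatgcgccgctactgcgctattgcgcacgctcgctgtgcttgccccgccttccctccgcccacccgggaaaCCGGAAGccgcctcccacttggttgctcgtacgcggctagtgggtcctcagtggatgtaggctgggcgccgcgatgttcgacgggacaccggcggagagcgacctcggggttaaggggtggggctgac

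The next comparison asked what 6 h without glucose did within each genotype. In KMT2D-KO 64 of 79 members rose and 0 fell, beside 20.8% and 21.8% of all 18678 genes tested, with a median log2 fold change of 0.57 (all genes −0.003). Scaling by library size alone gave 39 higher and 0 lower and a member median of 0.35, with the share of higher calls over all genes at 24.7% in place of 48.7% and their median at −0.23. With the library that went against its label left out, 59 rose and 0 fell in KMT2D-KO, beside 14.7% and 16.7% of all genes. In KMT2D-WT, whose fit shares its spread with all libraries, the 1 call given next was then lost, as was the 1 call of the interaction. The squamous markers moved with it, with 7 of 10 higher and 0 lower in KMT2D-KO (median 1.19) and 2 of 10 higher in the interaction (median 0.85), and their part in the result was not tested. All 11 tested members of complex IV rose, and 29 of 37 in complex I, 8 of 9 in complex III, 14 of 18 in complex V and 2 of 4 in complex II. In KMT2D-WT 1 of 79 members, COX7A2L, rose and 0 fell, beside 1.22% and 2.08% of all genes, with a median of 0.29. The median of KMT2D-WT was above 0 without its members passing the test singly: in 63 of 79 members (79.7%) every KMT2D-WT library without glucose lay above every one with glucose in both experiments, beside 27% of all genes, and in 2 (NDUFA7 and SDHD) below, beside 25%. At an unadjusted p under 0.05, 43 of 79 members were above 0 and 0 below in KMT2D-WT, beside 5109 of all 18678 genes in either direction. In KMT2D-KO there were 68 and 0, beside 9836 genes in either direction. DESeq2 with the same terms called 30 members higher and 0 lower in KMT2D-WT and 70 and 0 in KMT2D-KO. Of all genes it called 12.4% and 29.7% higher and 7.39% and 21.8% lower. All libraries of KMT2D-KO lay higher without glucose in both experiments for 56 of 79 members (70.9%), beside 18.8%, and lower for 0, beside 20.4%. COX7A2L, which takes part in joining complexes III and IV, was at 73.6, 62.2 and 58.8 CPM with glucose and 85.4, 80.3 and 83.3 CPM without in KMT2D-WT (0.36, SE 0.08, adjusted p = 0.0373), and it gave 0.52 (SE 0.07) in KMT2D-KO.

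The size of this change differed between the experiments. As the difference in mean log2(CPM + 0.5), the median over the members was 0.12 in KMT2D-WT and 0.37 in KMT2D-KO in experiment 1, and 0.37 and 0.72 in experiment 2, where the libraries with glucose were also the ones counted by both mates. The summed level without glucose was 1.09 and 1.32 times that with glucose in KMT2D-WT and KMT2D-KO of experiment 1, and 1.27 and 1.56 times in experiment 2. Complex II moved least in experiment 2, at 0.945 and 1.13 times, while complex IV moved most, at 1.37 and 1.72 times. The largest called rise in KMT2D-KO was NDUFB8 (1.31) in complex I, UQCRHL (1.95) in complex III, COX8A (1.12) in complex IV and ATP5ME (1.65) in complex V, and their levels with glucose differed strongly between the experiments. ATP5ME, for instance, was at 41.9 CPM in KMT2D-WT with glucose in experiment 1 and at 4.16 and 4.09 CPM in experiment 2, and without glucose at 49.4, 24.1 and 24.8 CPM. COX8A showed the same, at 197, 50.9 and 36.0 CPM with glucose and 214, 112 and 110 CPM without. UQCRHL is a gene copied from the transcript of UQCRH, and ATP5ME, NDUFB8 and COX8A share 61.3, 48.5 and 35.4% of their exonic bases with other genes, so that their counts are uncertain. By edgeR experiment 1 alone, where KMT2D-WT had 1 library in each medium, gave member medians of 0.13 in KMT2D-WT and 0.34 in KMT2D-KO. In experiment 2 alone 68 of 80 rose in KMT2D-KO and 40 of 80 in KMT2D-WT, beside 30.2% and 17.9% of all genes.

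**Figure D5:**
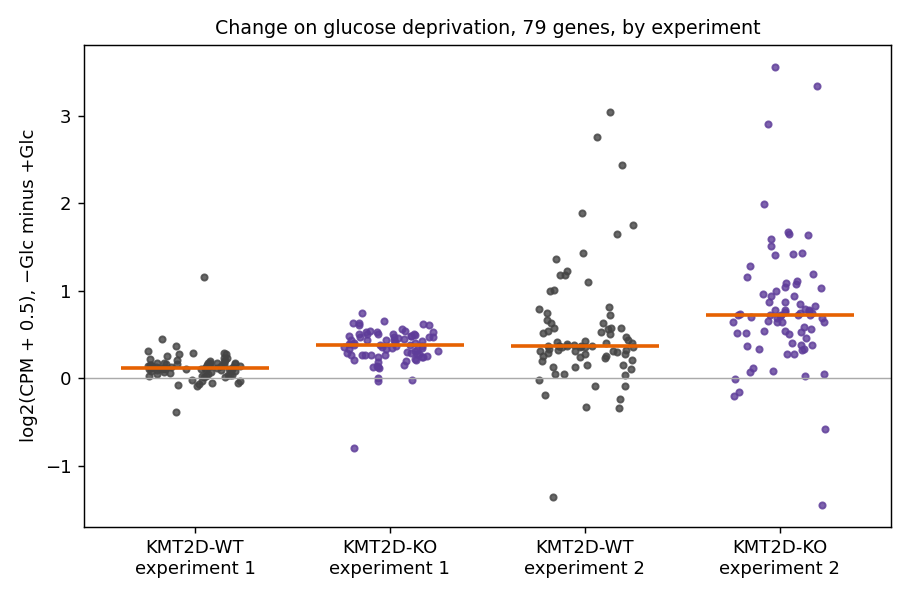
Change on glucose deprivation, as the difference in mean log2(CPM + 0.5) without minus with glucose, for 79 members (points) in each genotype and experiment; orange lines are medians. The medians are 0.12 and 0.37 for KMT2D-WT and KMT2D-KO in experiment 1 and 0.37 and 0.72 in experiment 2, where the points also scatter more widely.

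Whether the genotypes differed in their change was tested as an interaction with the experiment fitted within each medium. Of 79 members 1, COX6B1, passed the test with a larger rise in KMT2D-KO and 0 with a smaller one, beside 4.73% and 6.54% of all genes, and the median was 0.27 (all genes −0.002), with 74 of 79 above 0. COX6B1, a subunit on the intermembrane face of complex IV that links its monomers, was at 136, 52.2 and 51.7 CPM in KMT2D-WT and 137, 155, 52.0 and 61.6 CPM in KMT2D-KO with glucose, where the groups overlapped within experiment 2. Without glucose it was at 153, 65.3 and 65.4 CPM in KMT2D-WT and 236, 215, 89.2 and 97.8 CPM in KMT2D-KO, where they did not overlap within either experiment. The interaction was 0.42 on the log2 scale (SE 0.12, adjusted p = 0.0411). The count of 1 changed to 17 by DESeq2 with the same terms and to 16 with an offset for gene length, beside 9.66% and 9.5% of all genes. Scaling by library size alone gave 0 higher and 1 lower, beside 1.41% and 12.9% of all genes, with a member median of 0.05. The median of all genes moved to −0.23, and higher ones went from 42% to 9.90% of the calls over all genes. In the main fit COX4I1 (0.43, adjusted p = 0.0626) and SDHA (0.54, adjusted p = 0.0742) did not pass the interaction test. At an unadjusted p under 0.05 there were 23 members above 0 and 1 below of 79, beside 5097 of all 18678 genes in either direction. The 0 below in the adjusted count was also 0 by DESeq2, beside 8.93% of all genes.

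Among members compared per kilobase of exon, the highest levels over all libraries were those of NDUFS5 (331 CPM per kb) in complex I, SDHB (46.6) in complex II, UQCRH (76.7) in complex III, COX8A (358) in complex IV and ATP5F1B (340) in complex V. The lowest among tested members were NDUFA7 (0.318), SDHA (3.97), UQCRHL (11.2), COX7A1 (0.220) and ATP5MGL (2.59), and among complex IV members tested over all 14 libraries COX7A2L (18.1). These lengths are the union of all annotated exons, which understates genes with long rare isoforms. Of the 85 members 36 share over 5% of their exonic bases with another gene. Leaving those and the members with 5% or more of counts on pseudogene rows aside, 19 of 46 tested members were higher and 1 lower with glucose, and 34 of 45 higher and 1 lower without, with medians of 0.30 and 0.55. Members' exon length did not order their changes (Spearman correlation across genes 0.06 with glucose and 0.03 without, over 80 and 78 genes that share the same libraries).

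Other genes of the pathway were taken from lists fixed by function. The 58 assembly factors build the complexes without staying in them. With glucose 21 were higher and 0 lower in KMT2D-KO (median 0.26), beside 13% and 11.7% of all genes. Without glucose 20 of 57 were higher and 5 lower (median 0.27), beside 25.9% and 24.9%. Their median thus did not rise between media as that of the subunits did, and this difference was not tested. By complex, with glucose 7 of 19 assembly factors of complex I, 0 of 4 of complex II, 3 of 6 of complex III, 9 of 24 of complex IV and 2 of 5 of complex V were higher. NDUFAF4 (0.91), BCS1L (0.51) and ATPAF2 (0.52) led their lists with glucose, and ECSIT (0.91), UQCC3 (0.82), COX10 (1.08) and ATPAF2 (0.57) without. SDHAF4, an assembly factor of complex II, gave −1.42 without glucose. On glucose deprivation 22 of 58 rose and 5 fell in KMT2D-KO, beside 20.8% and 21.8% of all genes. In KMT2D-WT 2 rose and 0 fell, beside 1.22% and 2.08%.

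The 13 mRNAs of mitochondrial DNA, which encode the partner subunits, differed from the nuclear members on glucose deprivation. With glucose 2 of 13 (15.4%), MT-ND1 (0.70) and MT-CO1 (0.48), were higher in KMT2D-KO, near the 13% of all genes, and 0 lower. Without glucose 8 of 13 were higher, beside 25.9% of all genes, and 0 lower, led by MT-CO1 (1.06), with a median of 0.55. On glucose deprivation 2 of 13 fell in KMT2D-WT, MT-CYB (−0.97) and MT-CO3 (−0.95), beside 2.08% of all genes. In KMT2D-KO 4 fell, led by MT-CO3 (−0.98), beside 21.8%, and 1 rose, MT-ND4 (0.58), beside 20.8%, against 64 nuclear members that rose. The summed mitochondrial level in KMT2D-WT was 24004 CPM with and 23737 CPM without glucose in experiment 1, and 45059 and 23047 CPM on average in experiment 2, so that its fall came from experiment 2. In KMT2D-KO the averages were 35049 CPM with and 38414 CPM without glucose in experiment 1, and 48251 and 39258 CPM in experiment 2. The libraries with glucose of experiment 2 were those counted by both mates, so that for these falls medium and read layout cannot be told apart. Libraries were made from polyA RNA, and mitochondrial reads can be shared with nuclear copies.

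Of 14 regulators of mitochondrial gene expression, 13 could be tested, and 3 (23.1%) were higher in KMT2D-KO in each medium, beside 13% of all genes with glucose and 25.9% without, so that the count without glucose was near that of all genes. With glucose PPARGC1B, a transcriptional coactivator of mitochondrial biogenesis, rose by 1.46 in KMT2D-KO, TFB2M by 0.52 and YY1 by 0.33, and 0 fell. Without glucose NFE2L2, a stress response factor, rose by 1.04, GABPB1 by 0.54 and YY1 by 0.49, and TFB1M fell by 0.79. NRF1 and TFAM passed the test in neither (−0.13 and −0.01 with glucose, −0.09 and −0.14 without). Among the other components, CYCS (0.58) and NDUFAB1 (0.55) rose with glucose, and NDUFAB1 (0.61), ATP5IF1 (0.71) and NDUFA4L2 (2.38) without.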

How the data were processed

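RNA was measured in 14 libraries of SCC23 cells. The authors aligned the polyA RNA-seq reads with HISAT2 to GRCh38 and deposited raw counts per gene name, made with featureCounts 2.0.3 from Ensembl release 102 without strand and with primary alignments. The members and all gene lists were chosen with earlier results of these data known. Genes passed edgeR's filterByExpr with a minimum count of 10, were scaled by TMM and were tested with edgeR 4.0.16 (R 4.3.3, limma 3.58.1) by its quasi-likelihood test, with experiment as a covariate and Benjamini-Hochberg adjustment over all genes tested. A gene was called at an adjusted p under 0.05. The study's methods name DESeq2, which was run as an alternative (version 1.42.0). The comparisons of KMT2D-KO with KMT2D-WT used the libraries of 1 medium, and those of deprivation and the interaction used all 14. SE is the log2 fold change over the root of the F statistic. CPM values carry counting error as well as replicate spread, and low levels are the less precise. Gene lengths are the union of exons.

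Within a medium the experiment numbers in the labels pair the libraries. Deviations from the group means correlated at 0.92 between KMT2D-WT and KMT2D-KO with glucose and at 0.83 without. Between the media they correlated at 0.36 in KMT2D-WT and at 0.29 in KMT2D-KO, so that the pairing across media was weaker. Genes named in the text were the core subunits, the isoform pairs of complex IV, the called member of largest change in each complex, comparison and direction, the highest and lowest per kilobase, and the largest called change of each further list. Scripts were tested on simulated data. Alternatives covered tools, scaling, filters, gene length, pseudogene counts, single experiments and lines, close pairs of libraries and each library left out. Promoter sequences came from RefSeq (GRCh38.p14). Of the members, 1 is counted in the totals and not reported on its own.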

Additional observations from a re-analysis of the deposited data

Results flagged for a closer look

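COX6B1 was flagged because its difference between KMT2D-KO and KMT2D-WT was not the same in the 2 media by a test of that difference. The interaction was 0.42 on the log2 scale (SE 0.12, adjusted p = 0.0411 by edgeR's quasi-likelihood test), from 0.12 with glucose to 0.52 without. It lay between 0.36 and 0.48 when any 1 library was left out, and it missed the threshold in most of these fits. By a rule on the gap at either end of the range, no library stood apart in the 90 groups of 4 KMT2D-KO libraries examined. Each group mixed both experiments, whose levels often differ, so that the rule could hardly mark a library. Groups of KMT2D-WT were not examined.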

How the results depend on the processing

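The experiment was a term of every fit. Without that replicate block the members higher fell to 1 of 80 with glucose (lower 0), beside 2.42% of all genes, and to 17 without (lower 0), beside 10.2%. On deprivation they fell to 6 in KMT2D-KO, beside 5.52%, and 0 in KMT2D-WT, beside 0.0321%, and for the interaction to 0, beside 0.107%. DESeq2 without the experiment gave 4 higher of 80 and 0 lower with glucose, beside 6.79% and 5.83% of all genes. Without glucose it gave 29 and 0, beside 15.2% and 13.6%. In both fits the members with glucose were thus not called higher more often than all genes. DESeq2 with the same terms gave 30 higher on deprivation in KMT2D-WT and 17 for the interaction, beside 12.4% and 9.66% of all genes. Requiring a fold of 1.5 gave 12 higher with glucose, 30 higher and 0 lower without, 35 on deprivation in KMT2D-KO, 0 in KMT2D-WT and 0 for the interaction, fewer by construction. Experiment 1 alone, with 1 KMT2D-WT library a medium, gave member medians of 0.27 with glucose and 0.52 without. On deprivation they were 0.13 in KMT2D-WT and 0.34 in KMT2D-KO. The count of calls there is not given, because the spread of KMT2D-WT had to be assumed to be that of the others. The interaction was not fitted there. Experiment 2 alone gave 8 higher and 0 lower with glucose, beside 6.09% and 5.66% of all genes, and 3 lower without, beside 37.5%. On deprivation it gave 1 lower in KMT2D-KO, beside 26.4%, and 40 higher and 3 lower in KMT2D-WT, beside 17.9% and 14.2%. With glucose KO2 alone gave 55 higher and KO1 alone 9 lower, beside 18% and 15.3% of all genes. Without glucose KO2 alone gave 2 lower, beside 34.1%.

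Library size alone gave 3 lower with glucose and 5 lower without, 39 higher on deprivation in KMT2D-KO, and 0 higher and 1 lower for the interaction. RLE size factors gave 4 of 79 higher for the interaction, beside 6.2% of all genes. Close pairs summed gave 25 higher and 0 lower without glucose, beside 8.99% and 7.52% of all genes. They gave 0 higher on deprivation in KMT2D-WT, beside 0.0475%, and 0 for the interaction, beside 0.314%. An offset for gene length gave 2 lower without glucose, beside 22.8% of all genes. It gave 2 higher on deprivation in KMT2D-WT and 16 for the interaction, beside 2.17% and 9.5%. It also turned NDUFS5 on deprivation in KMT2D-KO from 0.54 to −0.20. With no filter there were 5 lower with glucose, beside 8.19% of all genes, and 1 lower on deprivation in KMT2D-KO, beside 11.1%. On deprivation in KMT2D-WT 27 were higher and 1 lower, beside 5.61% and 2.9%, and a stricter filter gave 3 higher, beside 2.21%. All 14 libraries in 1 fit gave 3 lower with glucose, beside 13.3% of all genes. The cause of these shifts was not tested where the setting does not itself lower the number of libraries.

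Leaving out 1 library at a time gave 7 to 35 higher and 0 to 2 lower with glucose, beside 5.31 to 13.5% and 4.72 to 12.6% of all genes. Without glucose it gave 45 to 64 and 1 to 3, beside 17.7 to 36.7% and 16.7 to 37.7%. On deprivation in KMT2D-KO it gave 52 to 68 and 0, beside 14.7 to 27.1% and 16.7 to 25.3%. In KMT2D-WT these were 0 to 13 and 0, beside 0.0937 to 5.44% and 0.135 to 6.97%. The interaction gave 0 to 10 and 0 to 1, beside 1.57 to 11.4% and 2.39 to 11.2%. Depth limits the tissue-restricted isoforms of complex IV, of which COX7A1 alone had enough counts to be tested, with glucose.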
